A study of Mus musculus with 6 samples.

Results

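The genes described here encode the enzymes that build cholesterol and fatty acids, the proteins that switch those enzymes on and off, and the enzyme and transporters that turn excess sterol into oxysterol or move it. They were taken as a list of 33 genes by symbol, and every probe set that the platform annotation pairs with 1 of these symbols was used, which gave 77 probe sets of 45037 and 33 genes of 18193. All 33 were above the median of all values on at least 2 arrays and entered the tests, which covered 11861 genes. By role the list holds 16 sterol synthesis enzymes, 5 regulators, 8 fatty acid enzymes and 4 genes of oxysterol production and sterol transport.

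The 6 Affymetrix arrays carried RNA from whole lungs of adult BALB/c mice of 3 genotypes, with 2 arrays a genotype. Each array held RNA pooled from 4 mice, so a group stands for 8 mice but gives only 2 values. Mice of every group had received 2 to 3 µg of IL-13 into the trachea once a day for 7 days, and the lungs were collected a further 24 hours later. No array came from mice without IL-13, so each value below is a difference between genotypes under the cytokine. The groups were wild type (WT), mice lacking the IL-4 receptor (IL4R -/-, here IL4R KO), and IL4R KO mice that also carried 1 copy of SMP8-IL4R (IL4R -/-, transgene +/-), a construct that expresses the receptor from the smooth muscle promoter of SMP8. The receptor carries the signal of IL-13 as well as of IL-4, so in the transgenic mice it was supplied by a promoter meant for smooth muscle alone. The pools within a group are numbered 1 and 2. P-values measure the spread between these pools, since the labels say nothing more of how mice were assigned to them.

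Cells adjust these genes to their sterol content. The transcription factors encoded by Srebf2 and Srebf1 are held in the endoplasmic reticulum by the escort protein Scap and the anchors Insig1 and Insig2 while sterol is plentiful. When sterol is scarce the escort carries them to the Golgi, where they are cut, and the released fragments switch on sterol genes (mainly Srebf2) and fatty acid genes (mainly Srebf1). Oxysterols such as the product of Ch25h block this release and activate the liver X receptors (LXR), which induce the cholesterol exporters Abca1 and Abcg1 and also Srebf1. In the lung, type 2 alveolar cells make fatty acids for surfactant, and alveolar macrophages take up surfactant and export its cholesterol.

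The promoters of the sterol enzymes are known for sites of the SREBP proteins beside CCAAT boxes bound by NF-Y, and they are shown here because the enzymes moved together across the arrays. RefSeq promoter windows (build GRCm38.p6, from 250 bases before to 50 bases after a start) were matched for 25 members. Fdps, Fdft1, Sqle, Scd1, Scd2, Fads1, Stard4 and Abcg1 were not used in this step. The 150 bases upstream of the start are printed for Hmgcs1, the first enzyme of the list, and for the 5 sterol enzymes that passed the test. They lie at chr13:119690201-119690350 (plus strand), chr8:122443423-122443572 (minus strand), chr13:8885456-8885605 (plus strand), chr5:4104698-4104847 (minus strand), chr8:64733579-64733728 (minus strand) and chr7:143830064-143830213 (plus strand). Each is written 5′ to 3′ on the strand of its gene, with CCAAT or its reverse ATTGG in capitals, and in Hmgcs1 also the match to the sterol regulatory element TCACNCCAC. Dhcr7 has 3 windows, and the one with the most CCAAT boxes is shown.
Hmgcs1: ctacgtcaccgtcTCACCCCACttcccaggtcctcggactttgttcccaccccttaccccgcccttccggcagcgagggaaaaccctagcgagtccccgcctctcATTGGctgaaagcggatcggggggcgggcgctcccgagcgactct
Mvd: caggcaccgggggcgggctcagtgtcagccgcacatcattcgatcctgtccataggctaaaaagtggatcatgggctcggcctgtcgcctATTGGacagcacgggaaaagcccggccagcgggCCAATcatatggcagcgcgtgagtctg
Idi1: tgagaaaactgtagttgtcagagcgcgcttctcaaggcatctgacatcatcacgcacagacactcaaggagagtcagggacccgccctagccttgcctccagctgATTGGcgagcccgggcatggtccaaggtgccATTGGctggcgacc
Cyp51: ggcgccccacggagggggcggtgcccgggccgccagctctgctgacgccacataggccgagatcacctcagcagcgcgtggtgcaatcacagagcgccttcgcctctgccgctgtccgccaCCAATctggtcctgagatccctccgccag
Msmo1: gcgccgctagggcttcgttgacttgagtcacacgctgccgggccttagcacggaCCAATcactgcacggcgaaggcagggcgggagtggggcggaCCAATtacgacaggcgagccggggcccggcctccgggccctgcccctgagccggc
Dhcr7: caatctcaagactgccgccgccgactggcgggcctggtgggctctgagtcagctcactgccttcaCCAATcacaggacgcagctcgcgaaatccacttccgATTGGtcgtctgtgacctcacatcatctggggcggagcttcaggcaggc

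A CCAAT box on either strand was found in the windows of 13 of 13 sterol enzymes, against 41.1% of 27025 genes in the whole table. Among the regulators 4 of 5 had one (all but Scap), among the fatty acid enzymes 2 of 5 (Acly and Fasn), and neither Ch25h nor Abca1 did. The Sp1 box GGGCGG was found for 12 of 13 sterol enzymes, all but Pmvk, against 38.2% of all genes. The other motifs matched in fewer members. TCACNCCAC matched in Hmgcs1 only, at bases -137 to -129 from the start, against 1.44% of all genes, and the E-box CACGTG matched in 3 of 13 sterol enzymes (Hsd17b7, Sc5d and Dhcr7), against 8.09%. The LXR element (a direct repeat spaced by 4 bases) matched in none of the 25 members and in 0.0148% of all genes. These are matches of letters and show no binding. Sites that depart from the exact letters are missed, so the lack of a match does not show that a site is missing. For motifs as rare as the LXR element, no match among 25 genes tells nothing.

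The arrays read as lung and share a common scale. Array medians lay between 7.08 and 7.11 on the log2 scale, and the surfactant gene Sftpc and the club cell gene Scgb1a1 stood at 14.6 or above on each array. Liver transcripts were present on 2 arrays: albumin (Alb) was at 12.3 in the first IL4R KO pool and 11.8 in the second WT pool, and between 5.68 and 5.93 on the others. IL4R KO pool 2 was low in the Y-linked Eif2s3y, at 4.27 against 8.49 to 9.18 on the other arrays. The receptor's own transcript, Il4ra, had log2 values of 9.35 and 9.55 in the IL4R KO pools, 9.64 and 9.81 in those of WT, and 9.98 and 9.84 with the transgene. Its groups did not differ past the threshold (limma adjusted p = 0.194 for WT against IL4R KO), and since the sources used here do not say whether the probes lie in the deleted part, this value does not check the labels.

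Among the sterol synthesis enzymes, 5 of 16 were higher in WT than in IL4R KO lungs and 11 did not pass the test. In the limma fit, the 5 enzymes at an adjusted p under 0.05 were Mvd, Idi1, Cyp51, Msmo1 and Dhcr7, and with Ch25h they made 6 of 33 members, or 18.2%, against 4.7% of all genes tested. All 6 were higher in WT, a direction called in 2.77% of all genes, and none was lower, against 1.92%. At an unadjusted p under 0.05 there were 19 of 33 members, 14 higher and 5 lower in WT, against 22.5% of all genes in either direction. The median difference over the 16 sterol enzymes was 0.34 on the log2 scale, and over all genes -0.02. In 15 of 16 the WT mean was above the IL4R KO mean, against 43.4% of all genes, and Pmvk was the exception. The pools of the 2 groups did not overlap, with WT higher, in 12 of 16, against 22.5% of all genes. The count of 6 depended on the arrays that set the spread. Leaving out either transgenic pool gives the same fit as WT and IL4R KO alone, and 1 member was called. Leaving out a WT or an IL4R KO pool leaves 1 array in that group. Without both pools that carried liver transcripts 1 WT and 1 IL4R KO array remain, and the sterol median was 0.23. The 18 alternatives counted below hold the fit of WT and IL4R KO alone more than once. Some of them leave 1 array in a group. Of 18 alternatives for each called enzyme, Msmo1 passed in 11, Mvd in 10, Cyp51 in 8, and Idi1 and Dhcr7 in 7 each.

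Msmo1 encodes the oxidase that begins the removal of the methyl groups at carbon 4 of the sterol ring. Its log2 values were 9.89 and 9.88 in the WT pools, 9.18 and 9.38 in those of IL4R KO, and 9.39 and 9.29 with the transgene. Both WT pools lay above the other 4 arrays, and the WT pools differed from each other by far less than the IL4R KO pools did. WT exceeded IL4R KO 1.52-fold, by 0.61 ± 0.09 (SE, n = 2 pools a group; 95% interval 0.40 to 0.81; limma adjusted p = 0.0195). With the median of its 2 probe sets, 1 of them dim, in place of the brighter one, the difference was 0.23 and did not pass (adjusted p = 0.223).

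Mvd makes isopentenyl diphosphate, the building block of sterols. It stood at 8.00 and 7.97 in the WT pools, 7.48 and 7.59 in those of IL4R KO, and 7.63 and 7.53 with the transgene, again with both WT pools on top. The WT excess was 0.45 ± 0.07 (SE, n = 2; limma adjusted p = 0.0263). Idi1, which interconverts that building block and its isomer, had values of 10.52 and 10.32 in the WT pools, 9.89 and 9.79 in those of IL4R KO, and 10.02 and 9.78 with the transgene. WT exceeded IL4R KO by 0.58 ± 0.11 (SE, n = 2; limma adjusted p = 0.0470). Here the transgenic pools were about as far apart as the WT pools, and neither range reached the other.

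Cyp51, the lanosterol demethylase, was at 8.91 and 8.85 in the WT pools, 8.30 and 8.49 in those of IL4R KO, and 8.46 and 8.29 with the transgene. Its difference was 0.49 ± 0.09 (SE, n = 2; limma adjusted p = 0.0480). Dhcr7 carries out a last step of cholesterol synthesis. Its values were 9.10 and 9.20 in the WT pools, 8.56 and 8.77 in those of IL4R KO, and 8.60 and 8.48 with the transgene, a WT excess of 0.48 ± 0.09 (SE, n = 2; limma adjusted p = 0.0490). In both genes the 2 WT values stood clear of the other 4, and in both the adjusted p was close to the threshold.

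Sqle, the squalene epoxidase and a control point of the pathway, had a WT excess over IL4R KO as large as that of Msmo1 but did not pass: 0.60 ± 0.12 (SE, n = 2; limma adjusted p = 0.0541), with 10.45 and 10.40 in the WT pools, 9.67 and 9.99 in those of IL4R KO, and 9.89 and 9.73 with the transgene. Fdps, which makes farnesyl diphosphate, differed by 0.42 (adjusted p = 0.114). The differences of Nsdhl, Hmgcs1, Lss, Sc5d and Hsd17b7 were 0.35, 0.32, 0.31, 0.24 and 0.22, with adjusted p from 0.0685 to 0.229. In all of these the 2 WT values were above both IL4R KO values. The remaining members of the role were near 0 or reversed: 0.11 for the mevalonate kinase Mvk, 0.10 for the squalene synthase Fdft1, 0.03 for the sterol isomerase Ebp, and -0.25 for the phosphomevalonate kinase Pmvk (adjusted p from 0.340 to 0.865). Their 95% intervals reach up to 0.43 for Mvk, 0.32 for Fdft1 and 0.19 for Ebp, so smaller WT excesses than those of Mvd or Msmo1 are not excluded by these arrays.

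**Figure D1:**
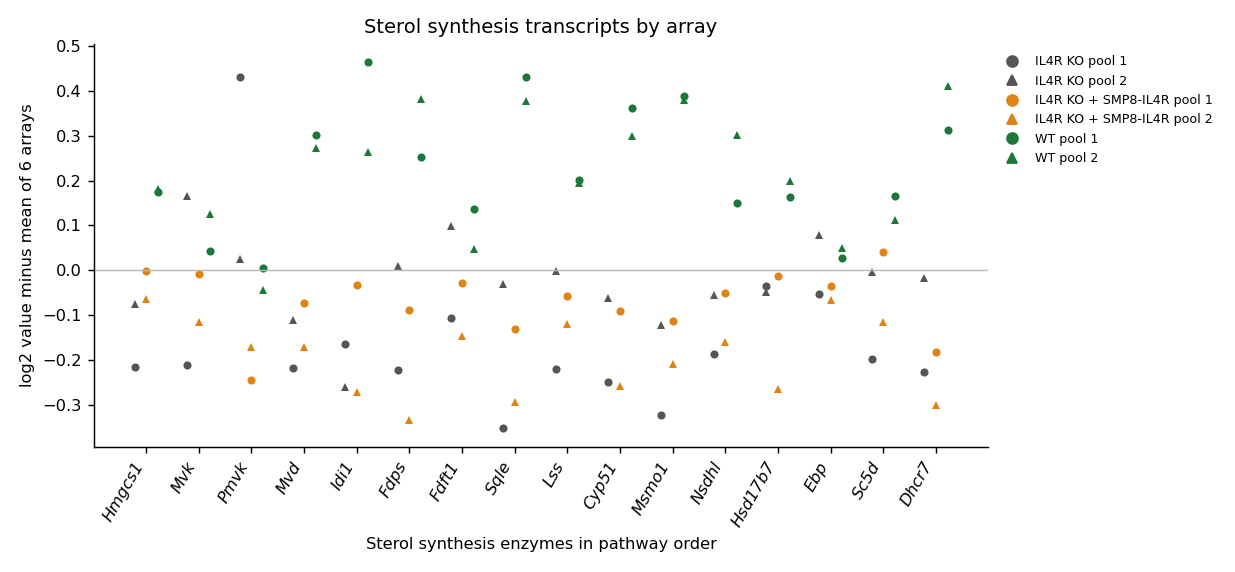
Each point is the log2 value of 1 array minus the mean of the 6 arrays for that gene, for the 16 sterol synthesis enzymes in pathway order. Colours give the genotype, circles pool 1 and triangles pool 2. In 12 of 16 enzymes both green WT points lie above the other 4 points.

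Both WT pools were above the other 4 arrays in 12 of 16 sterol enzymes, all but Mvk, Pmvk, Fdft1 and Ebp, while 12.9% of all genes tested had that order. No sterol enzyme had both WT pools below the other 4, an order held by 19.7% of all genes. Each enzyme centred on its own mean, the median of the 16 was 0.19 and 0.23 in the WT pools, -0.21 and -0.02 in the IL4R KO pools, and -0.05 and -0.17 in the transgenic pools. Genes of 1 pathway are not independent, so the 12 are not 12 separate observations.

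The enzymes also differed together between pools of 1 genotype. Transgenic pool 1 exceeded transgenic pool 2 in 15 of 16 sterol enzymes, all but Pmvk, against 49.7% of all genes. IL4R KO pool 2 exceeded IL4R KO pool 1 in 13 of 16, against 63.8%. Between the WT pools there was no such order, with WT pool 2 higher in 7 of 16. The median size of these shifts was 0.11 between the transgenic pools and 0.19 between the IL4R KO pools, smaller than the 0.34 between WT and IL4R KO. These orders were not particular to the sterol enzymes. Among the fatty acid enzymes, transgenic pool 1 and IL4R KO pool 2 were each the higher in 7 of 8. Their median was 0.03 for transgenic pool 1 minus pool 2 and -0.20 for IL4R KO pool 1 minus pool 2. Among the regulators the same orders held in 3 of 5 and 4 of 5.

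Lungs with the smooth muscle transgene had sterol enzyme transcripts below those of WT and, in the median, close to those of IL4R KO. All 16 sterol enzymes had both transgenic values below both WT values, where 23.6% of all genes did, and the median difference from WT was -0.33, against 0.03 over all genes. In the limma fit Mvd, Msmo1, Dhcr7 and Ch25h were lower than in WT, 4 of 33 members or 12.1%, against 2.84% of all genes for either direction and 2.15% for lower. Against IL4R KO no member was called in either direction in the same limma fit (7 of 33 at an unadjusted p under 0.05), against 0.101% of all genes (12.4% at the unadjusted threshold). The sterol median in that comparison was -0.02, with single enzymes from -0.43 (Pmvk) to 0.11 (Hmgcs1), and it had no stable sign: leaving out pool 1 gave -0.10 (for IL4R KO) and -0.0857 (for the transgene), and leaving out pool 2 gave 0.0792 and 0.0569. The comparisons share arrays: both WT pools enter each comparison with WT, and both IL4R KO pools enter each comparison with IL4R KO. Leaving out either IL4R KO pool gives the same fit as the transgene and WT alone, and the count of 4 became 9. Leaving out a WT or a transgenic pool leaves 1 array in that group.

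Dhcr7 was 1.52-fold lower with the transgene than in WT, at -0.60 ± 0.09 (SE, n = 2; limma adjusted p = 0.0350). Msmo1 differed by -0.54 ± 0.09 (adjusted p = 0.0352) and Mvd by -0.41 ± 0.07 (adjusted p = 0.0453). Sqle, Fdps, Idi1 and Cyp51 had differences of -0.62, -0.53, -0.52 and -0.50, with adjusted p from 0.0567 to 0.0951. Against IL4R KO, the 95% intervals of Mvd, Msmo1 and Dhcr7 were -0.13 to 0.22, -0.15 to 0.27 and -0.35 to 0.11. Each of these stops short of the gene's WT excess over IL4R KO. For Pmvk the order was its own: 8.44 and 8.52 with the transgene, 8.69 and 8.64 in WT, 9.12 and 8.71 in IL4R KO. Its transgenic values were the lowest 2 of 6, at -0.43 ± 0.13 from IL4R KO (SE, n = 2; limma adjusted p = 0.314). Over 18 alternatives the Pmvk difference from IL4R KO ranged from -0.64 to -0.23.

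**Figure D2:**
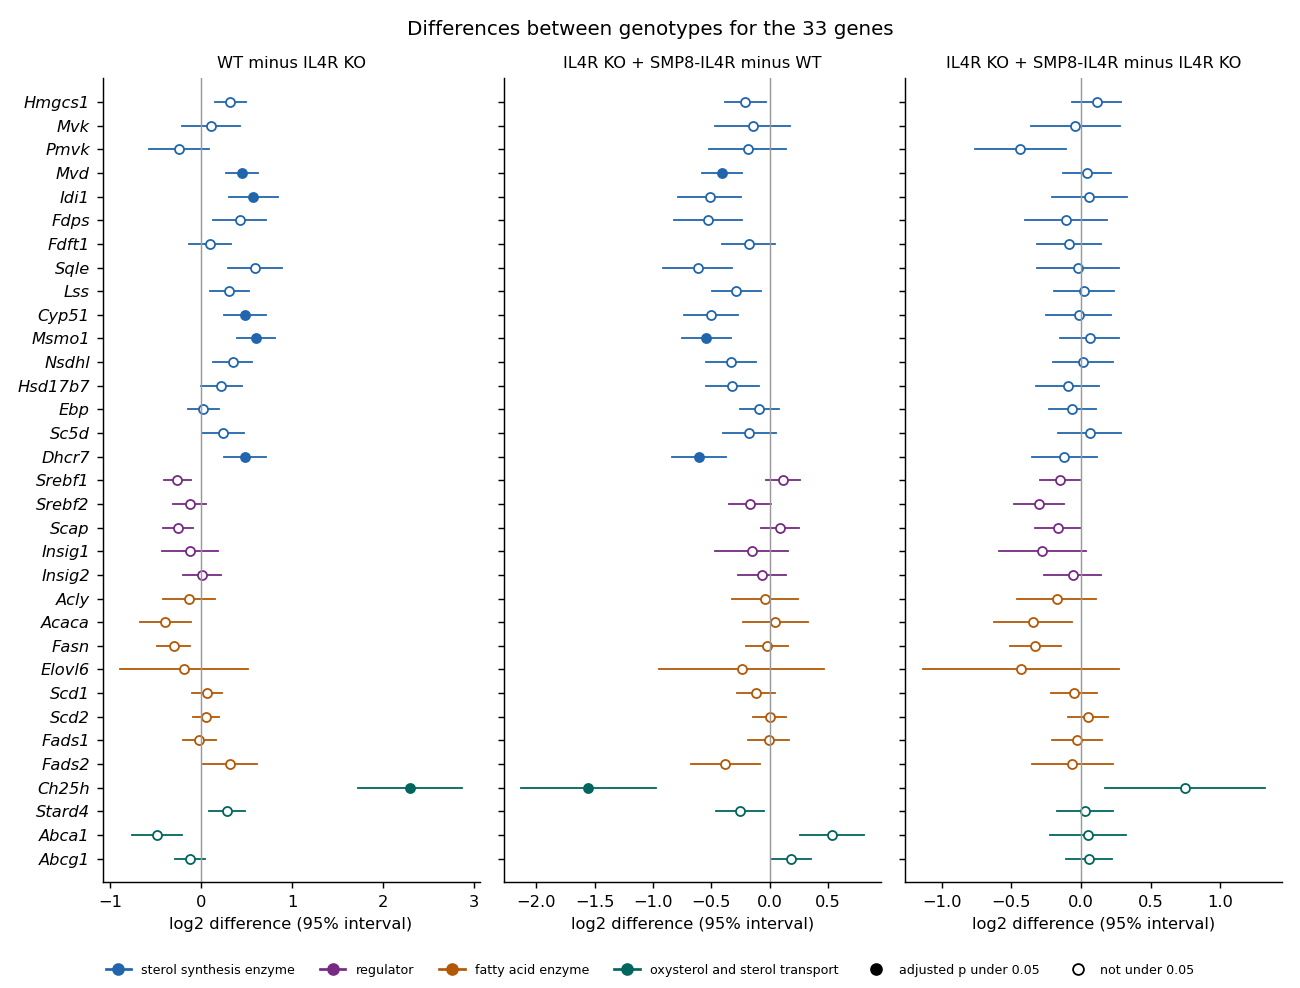
Points are fitted log2 differences for the 33 genes and lines their 95% intervals, in 3 panels with separate horizontal scales: WT minus IL4R KO, IL4R KO + SMP8-IL4R minus WT, and IL4R KO + SMP8-IL4R minus IL4R KO. Filled points have an adjusted p under 0.05: 6 on the left, 4 in the middle and 0 on the right.

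Several genes are read by more than 1 probe set, and these repeat the pattern of the sterol enzymes. Of their 37 probe sets, 33 had a WT mean above the IL4R KO mean, against 50.1% of all probe sets, and 36 had a transgenic mean below the WT mean, against 51.1%. Of the 28 probe sets above the intensity filter, these counts were 26 and 28. A further probe set of Idi1 gave a WT excess of 0.94 and one of Cyp51 gave 0.74, larger than the 0.58 and 0.49 of the probe sets that stood for these genes. The second probe set of Mvd gave 0.52. The 4 probe sets of Hmgcs1 above the filter lay between 0.32 and 0.36, and a dim one at -0.11. Msmo1 had a dim probe set at -0.15. Probe sets of 1 gene share their RNA and are no replicates. In a fit over all 45037 probe sets, 5 of the 77 were called between WT and IL4R KO (1 each of Idi1, Cyp51, Msmo1, Ch25h and the sterol carrier Stard4), against 1.58% of all probe sets. Between the transgene and WT 2 were called (Mvd and Ch25h), against 1.04%.

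**Figure D3:**
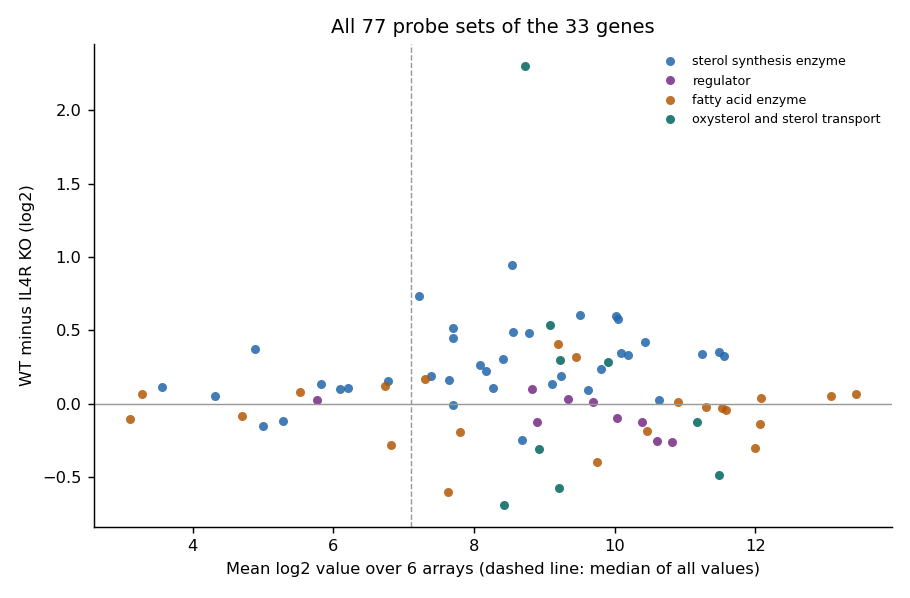
Each point is 1 of the 77 probe sets, with its mean log2 value over the 6 arrays on the horizontal axis and its WT minus IL4R KO difference on the vertical axis, coloured by role. Of the 37 blue sterol enzyme probe sets 33 lie above the line at 0, and the single point at 2.30 is Ch25h.

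The regulators did not move with the enzymes. In the limma fit none of 5 was called in any of the 3 comparisons. At an unadjusted p under 0.05, 2 of 5 were lower in WT than in IL4R KO (Srebf1 and Scap), against 22.5% of all genes in either direction. With the transgene 3 of 5 were lower than in IL4R KO (Srebf1, Srebf2 and Scap), against 12.4%, and 0 of 5 differed from WT, against 18%. In WT the means of Srebf1, Srebf2, Scap and Insig1 lay below those of IL4R KO. Srebf2, the factor that mainly drives the sterol enzymes, was at 10.42 and 10.39 in the WT pools, 10.45 and 10.61 in those of IL4R KO, and 10.23 and 10.23 with the transgene. The WT difference from IL4R KO was -0.13 ± 0.07 (SE, n = 2; limma adjusted p = 0.368), and that of the transgene from IL4R KO -0.30 ± 0.07 (adjusted p = 0.270). On this probe set the transgenic pools were thus the lowest 2 of the 6. The other Srebf2 probe set, also above the filter, did not repeat that order. It read 10.03 and 9.96 with the transgene, 10.01 and 9.99 in the WT pools, and 10.06 and 10.15 in those of IL4R KO. Its transgenic difference from IL4R KO was -0.10.

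Srebf1 was at 10.72 and 10.67 in the WT pools, 10.93 and 10.98 in those of IL4R KO, and 10.80 and 10.81 with the transgene, with groups that did not overlap in any comparison. WT was 0.26 lower than IL4R KO (95% interval of WT minus IL4R KO -0.41 to -0.12; limma adjusted p = 0.0715). Its probe set does not tell the transcript forms of Srebf1 apart. Scap had the same order of groups: 10.47 and 10.50 in the WT pools, 10.69 and 10.79 in those of IL4R KO, and 10.54 and 10.61 with the transgene (WT minus IL4R KO -0.25, limma adjusted p = 0.0985).

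Insig1, an anchor that is itself a target of SREBP, was at 8.84 and 8.97 in the WT pools, 8.87 and 9.18 in those of IL4R KO, and 8.85 and 8.65 with the transgene. Its WT and IL4R KO values overlapped (-0.12 ± 0.13, SE, n = 2; limma adjusted p = 0.613), and without IL4R KO pool 2 the difference was 0.03. Insig2 was at 9.71 and 9.72 in the WT pools, 9.74 and 9.68 in those of IL4R KO, and 9.75 and 9.55 with the transgene, with a WT difference of 0.01 ± 0.08 (adjusted p = 0.965) and a 95% interval of -0.20 to 0.21. Without IL4R KO pool 2 this was -0.02. The 3 Insig2 probe sets disagreed on the transgene. Another one was at 8.97 and 8.88 with the transgene, 8.83 and 8.83 in the WT pools, and 8.75 and 8.70 in those of IL4R KO. Its transgenic difference from IL4R KO was 0.20 (limma over all probe sets, adjusted p = 0.405). That of the third was -0.05. These are transcript levels. Cleavage of the SREBP proteins was not measured.

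Ch25h, which makes 25-hydroxycholesterol, had the largest difference among the 33 genes. Its log2 values were 10.11 and 9.93 in the WT pools, 7.77 and 7.66 in those of IL4R KO, and 8.84 and 8.09 with the transgene, so the 3 groups did not overlap and the transgenic pools lay between the others. WT exceeded IL4R KO 4.93-fold, by 2.30 ± 0.23 (SE, n = 2; 95% interval 1.73 to 2.88; limma adjusted p = 0.00662). The transgenic lungs were 2.94-fold below WT (-1.55 ± 0.23; limma adjusted p = 0.0324). They were 0.75 ± 0.23 above IL4R KO, which did not pass (adjusted p = 0.321), and their 2 pools differed by as much, 0.75. Ch25h passed in 16 of 18 alternatives for WT against IL4R KO. It missed the threshold without WT pool 1 (2.21) and without WT pool 2 (2.39), where 1 WT array remains. Against WT, the transgenic difference missed it with Alb as a covariate (-1.57). It was -1.46 without WT pool 1, -1.64 without WT pool 2 and -1.64 without both pools that carried liver transcripts, each with 1 WT array left. Ch25h is read by a single probe set.

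Neither exporter passed in any comparison, though both had their lowest 2 values in WT, as 19.7% of all genes did. Abca1, which passes cholesterol to lipid-poor apolipoprotein, was at 11.10 and 11.19 in the WT pools, 11.79 and 11.48 in those of IL4R KO, and 11.64 and 11.71 with the transgene. Both WT values were the lowest of the 6. WT differed from IL4R KO by -0.48 ± 0.11 (SE, n = 2; limma adjusted p = 0.0756), and the transgene from WT by 0.53 ± 0.11 (adjusted p = 0.0782). All 3 probe sets of Abca1 gave a lower WT value, from -0.69 to -0.48. Abca1 passed in 5 and 7 of 18 alternatives for these comparisons. Abcg1, which exports cholesterol to mature lipoprotein, was at 11.08 and 11.04 in the WT pools, 11.24 and 11.14 in those of IL4R KO, and 11.21 and 11.29 with the transgene. Again both WT values were the lowest, with a difference of -0.13 ± 0.07 from IL4R KO (adjusted p = 0.328). Stard4, which carries sterol between membranes, sided with the enzymes at 10.10 and 10.06 in the WT pools, 9.73 and 9.86 in those of IL4R KO, and 9.91 and 9.74 with the transgene. Its WT excess was 0.29 on the probe set that stood for it (adjusted p = 0.118) and 0.54 on another, which passed in the fit over all probe sets (adjusted p = 0.0366).

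**Figure D4:**
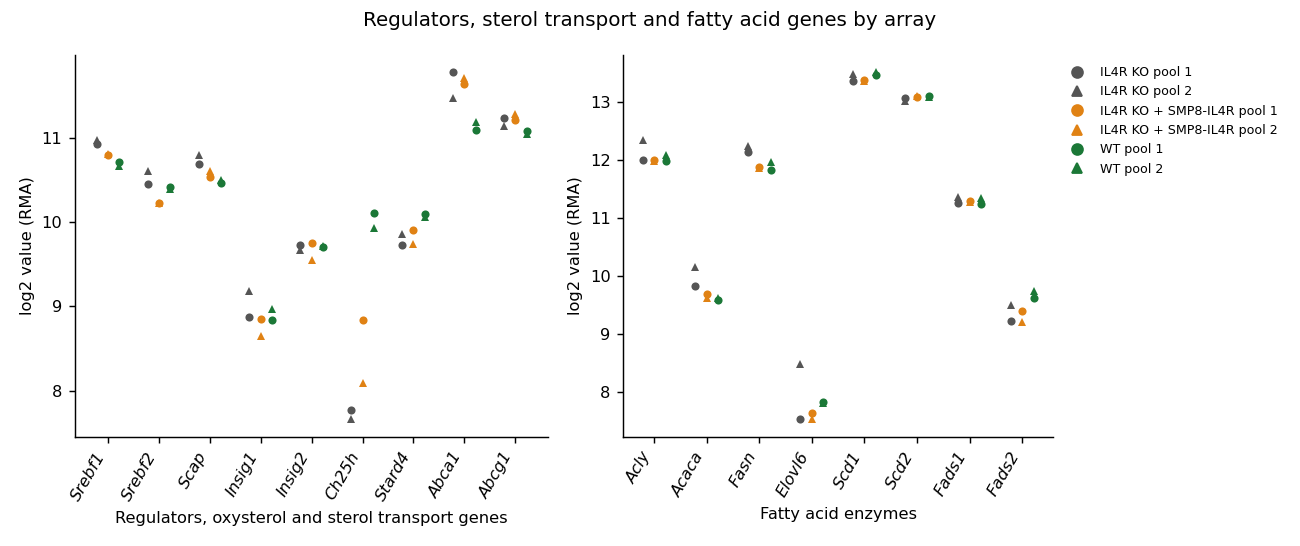
Log2 values on each of the 6 arrays for the regulators and the oxysterol and sterol transport genes (left) and for the fatty acid enzymes (right), coloured by genotype, circles for pool 1 and triangles for pool 2. Ch25h separates the 3 genotypes, with WT at 10.11 and 9.93, and Abca1 has its lowest 2 values in WT.

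The fatty acid enzymes did not share the WT excess. In the limma fit none of 8 was called in any comparison. At an unadjusted p under 0.05, 3 of 8 differed between WT and IL4R KO (Acaca and Fasn lower, Fads2 higher), against 22.5% of all genes. Between the transgene and IL4R KO 2 of 8 did (Acaca and Fasn lower), against 12.4%, and between the transgene and WT 1 of 8 (Fads2 lower), against 18%. With so few genes these counts are not far from the shares of all genes. Their median difference between WT and IL4R KO was -0.08, with a range from -0.39 (Acaca) to 0.32 (Fads2). Fasn, the fatty acid synthase, was at 11.84 and 11.97 in the WT pools, 12.15 and 12.25 in those of IL4R KO, and 11.89 and 11.86 with the transgene. Both IL4R KO values were the highest of the 6. WT was 0.30 lower (WT minus IL4R KO -0.30 ± 0.07, SE, n = 2; limma adjusted p = 0.0847), and the transgene differed from IL4R KO by -0.33 ± 0.07 (adjusted p = 0.241), the lowest unadjusted p of the 33 genes in that comparison.

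Acaca, the carboxylase that feeds the synthase, was at 9.59 and 9.62 in the WT pools, 9.83 and 10.17 in those of IL4R KO, and 9.69 and 9.62 with the transgene. IL4R KO was again highest, with WT at -0.39 ± 0.11 (limma adjusted p = 0.121) and the transgene at -0.35 ± 0.11 from it (adjusted p = 0.332). The elongase Elovl6 rested on 1 array: IL4R KO pool 2 stood at 8.49, and the other 5 arrays between 7.53 and 7.83. Acly, the citrate lyase, was at 12.34 in that pool and between 11.99 and 12.09 elsewhere. The desaturases Scd1, Scd2 and Fads1 differed between WT and IL4R KO by 0.07, 0.05 and -0.02, and their 95% intervals stayed within -0.20 to 0.23. Fads2, which starts the synthesis of long polyunsaturated fatty acids, had both WT values on top like most sterol enzymes, at 9.63 and 9.75 in the WT pools, 9.23 and 9.51 in those of IL4R KO, and 9.41 and 9.21 with the transgene. Its WT excess of 0.32 did not pass (adjusted p = 0.197).

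None of 33 members followed albumin. A gene was counted as following it when it was at least 0.3 higher in the albumin-rich pool than in the other pool, in IL4R KO and in WT, which 0.784% of all genes did. With no minimum size, Hsd17b7, Insig2 and Abca1 were higher in both albumin-rich pools, 3 of 33, against 15.7% of all genes. The 13 tested liver markers averaged 9.84 and 9.28 in the albumin-rich pools of IL4R KO and of WT, and 5.80 to 5.97 on the other 4 arrays. In the albumin-rich IL4R KO pool, 13 of 16 sterol enzymes were lower than in its partner. That partner was low in the Y-linked Eif2s3y, Kdm5d and Uty (4.27, 3.33 and 3.56, against 9.18, 8.04 and 7.69 in the albumin-rich pool). The IL4R KO pools thus differed in liver and in Y-linked transcripts, and the part of each in this order was not tested. In the albumin-rich WT pool 7 of 16 were higher than in its partner.

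The fat transcript Adipoq was at 10.1 and 10.3 in IL4R KO, 8.79 and 8.75 with the transgene, and 8.08 and 8.39 in WT. The genotype means of Srebf1, Scap and Acaca had that order, which 26% of all genes had. Acaca also had the sign of all 3 pool differences of Adipoq and was the only member to follow it fully, 1 of 33 or 3.03%, against 6.04% of all genes. Of 8 adipocyte markers tested, 6 were lower in WT than in IL4R KO (Adipoq, Ucp1, Cidec, Plin4, Retn and Car3), against 1.92% of all genes. The 8 averaged 7.56 and 8.08 in the WT pools, 9.24 and 9.12 in those of IL4R KO, and 8.12 and 8.27 with the transgene. Fasn, Acaca and Srebf1 were highest in the same genotype, and the part of fat RNA in their values was not tested.

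**Figure D5:**
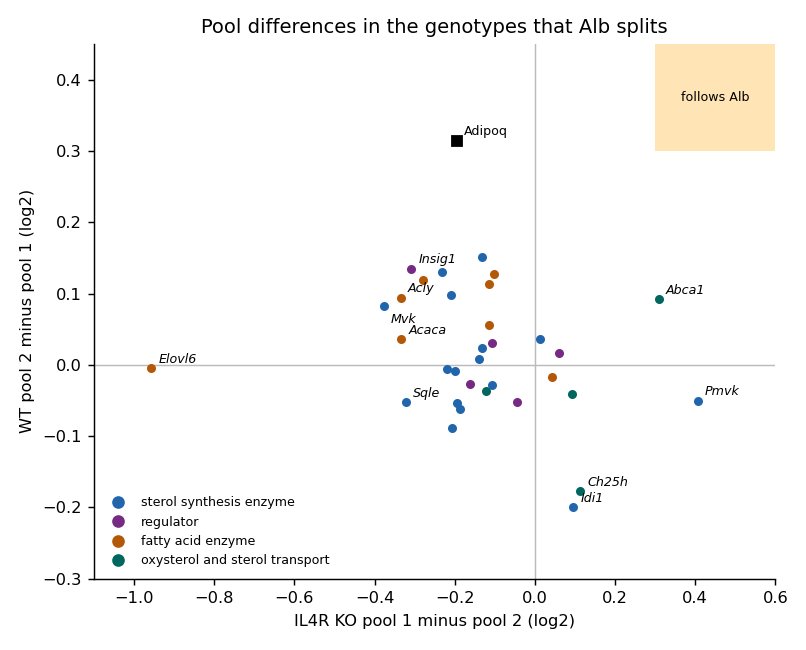
For each member, the difference between the albumin-rich and the other pool in IL4R KO (horizontal) and in WT (vertical), on the log2 scale and coloured by role. The shaded corner is where both differences are at least 0.3, the rule for following Alb, and it holds no member. The black square is Adipoq, and Alb itself (6.35 and 5.91) lies outside the axes.

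Goblet markers and some macrophage markers shared the WT excess of the sterol enzymes and Ch25h, and markers of other cells had other orders. In whole lung, fewer cells of a type and less RNA per cell cannot be told apart. All 8 goblet and mucous markers were higher in WT than in IL4R KO and lower with the transgene than in WT. They averaged 10.77 and 10.79 in the WT pools, 7.49 and 7.41 in those of IL4R KO, and 7.12 and 7.31 with the transgene. Over all genes, 2.77% were called higher and 1.92% lower in WT than in IL4R KO. With the transgene 2.15% were called lower than in WT. Of 9 macrophage markers tested, Mrc1, Itgax and Chil3 were higher and Lyz2 lower in WT than in IL4R KO, and the 9 averaged 11.07 and 11.17 in the WT pools, 10.58 and 10.54 in those of IL4R KO, and 10.68 and 10.44 with the transgene. Of 8 markers of type 2 alveolar cells, Lpcat1 was lower in WT, and the 8 averaged 13.52 to 13.67 on the 6 arrays. Of 4 club cell markers, Scgb3a2 was lower in WT. Smooth muscle markers had another order, with 5 of 7 higher in WT than in IL4R KO and 3 of 7 higher with the transgene than in IL4R KO. Between the transgene and IL4R KO, 0.101% of all genes were called in either direction. The part of goblet cells and macrophages in the sterol enzyme values was not tested.

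Further genes of these pathways were read from lists. Of 9 other sterol genes 5 were tested and none was called in limma between any genotypes, at a median WT minus IL4R KO difference of -0.06 (all genes -0.02). At an unadjusted p under 0.05, 2 of these 5 were higher in WT than in IL4R KO and lower with the transgene than in WT. They were Tm7sf2, a sterol reductase, and Cyb5b, a cytochrome b5. Of all genes, 22.5% and 18% differed at that threshold in these comparisons, in either direction. Of 8 tested genes that process or degrade SREBP none was called, and at the unadjusted threshold 0 differed between WT and IL4R KO and 1, the ligase Rnf145, between the transgene and WT. Of 4 tested genes of oxysterol metabolism and 13 of fatty acid oxidation none was called either. Unadjusted, 2 of the 4 (Cyp27a1 and Cyp39a1) and 4 of the 13 (Ppara, Acadm, Acadvl and Acaa2) were lower in WT than in IL4R KO, where 22.5% of all genes differed in either direction, so that these counts are not far from that of all genes. Of 17 tested genes of fatty acid and triglyceride synthesis, 1 was higher and 2 were lower in WT than in IL4R KO. Unadjusted there were 9 of 17, with 1 higher and 8 lower. The shares of all genes were 4.7% called and 22.5% unadjusted, in either direction. Me1, the malic enzyme that supplies NADPH, was at 11.48 and 11.47 in the WT pools, 10.31 and 10.71 in those of IL4R KO, and 10.24 and 10.09 with the transgene. It was 0.96 ± 0.14 higher in WT than in IL4R KO (SE, n = 2; limma adjusted p = 0.0204) and lower with the transgene than in WT (-1.31 ± 0.14; adjusted p = 0.00894).

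Thrsp, a promoter of lipogenesis abundant in fat and liver, was at 8.96 and 9.33 in the WT pools, 10.40 and 10.99 in those of IL4R KO, and 9.14 and 9.31 with the transgene (WT minus IL4R KO -1.55 ± 0.22, SE, n = 2; limma adjusted p = 0.0187). Dgat2, which completes triglyceride, was at 8.73 and 9.07 in the WT pools, 9.76 and 9.86 in those of IL4R KO, and 9.05 and 8.93 with the transgene (-0.91 ± 0.12; adjusted p = 0.0169). Both were highest where the adipocyte markers were.

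Of 13 tested genes of the LXR and cholesterol transport list, Lipa was higher and Vldlr lower in WT than in IL4R KO. Unadjusted there were 5 of 13, with 1 higher and 4 lower. Over all genes 4.7% were called and 22.5% passed unadjusted, in either direction. Lipa, the lysosomal lipase that frees cholesterol from its esters, was at 11.12 and 11.06 in the WT pools, 10.65 and 10.60 in those of IL4R KO, and 10.60 and 10.54 with the transgene (0.47 ± 0.06, SE, n = 2; limma adjusted p = 0.0173). Vldlr, a lipoprotein receptor, was at 10.04 and 10.04 in the WT pools, 10.59 and 10.52 in those of IL4R KO, and 10.40 and 10.58 with the transgene (-0.52 ± 0.08; adjusted p = 0.0230). With the transgene Lipa was lower than in WT and Vldlr higher (adjusted p = 0.0160 and 0.0452). Mylip, an LXR target that marks lipoprotein receptors for breakdown, was also higher with the transgene than in WT (0.45 ± 0.07; adjusted p = 0.0403). Its values were 10.61 and 10.49 in the WT pools, 10.86 and 10.94 in those of IL4R KO, and 10.95 and 11.04 with the transgene. WT was lowest, as for Abca1 and Abcg1, and 19.7% of all genes had both WT pools below the other 4 arrays. On the same list Lpcat3 and Abcg8 had WT minus IL4R KO differences of 0.06 and 0.13, which did not pass.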

How the data were processed

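Whole lung RNA pools on 6 Affymetrix arrays were analysed from the log2 values that the authors deposited, made with RMA per the submitters' processing notes (version not given in the sources used here). RMA corrects background, normalizes across arrays and compresses differences between dim probe sets. From 45101 probe sets, 64 array controls were left out. Platform annotation gave 34945 probe sets 1 gene, 932 several and 9160 none, and all 33 members matched the RefSeq gene table by Entrez number. Each gene was represented by its probe set of highest mean, kept where above the median of all values (7.10) on at least 2 arrays. limma 3.58.1 in R 4.3.3 fitted 1 mean a group to all 6 arrays (3 residual degrees of freedom, eBayes prior 2.86), with Benjamini-Hochberg adjustment over 11861 genes and a threshold of 0.05. A second fit took every probe set. The tests were checked on simulated data, with recovery required only for differences far larger than those of the sterol enzymes. The number of arrays limits the precision, and arrays give no read depth.

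The members and the pathway and marker lists were chosen with earlier results of these data known. Named with all values are members called in any comparison, those with the 5 lowest p in each, those following Alb or Adipoq, regulators, Ch25h and the exporters, and up to 3 called genes of each pathway list and comparison. Sqle, Stard4, Fads2, Elovl6 and genes named at an unadjusted p were added after their values were seen. Groups came from the labels. Pool differences correlated at -0.509 (WT and IL4R KO), 0.121 and -0.0875 (transgene with IL4R KO and with WT). The labels give no pairing of the pools, and none was fitted in the reported test. These correlations cannot settle it, since genes are not independent and liver transcripts lay in opposite pools of WT and IL4R KO. Alternatives changed the filter, probe set, variance model, arrays, normalization, a replicate block and covariates.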

Additional observations from a re-analysis of the deposited data

How the results depend on the processing

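For the sterol enzymes the direction of the differences from WT held where the calls did not. Both WT pools lay above the other 4 arrays in 12 of 16 enzymes, so leaving out pools could not turn the sign of the median. The median over the 16 sterol enzymes stayed between 0.23 and 0.42 for WT minus IL4R KO and between -0.42 and -0.25 for the transgene minus WT in all 19 alternatives run. For the transgene minus IL4R KO it had no stable sign (-0.10 to 0.0792), nor had the median over all 33 members (-0.11 to 0.0172). For WT against IL4R KO, 6 called members became 3 with no filter, 11 with a robust intensity trend (8 higher, 3 lower), 1 with only these 2 groups fitted (Ch25h), 3 without both pools with liver transcripts, and from 0 to 14 when single pools were left out. The replicate block gave 3 (Ch25h, Idi1 and Msmo1). For the transgene against WT, 4 became 2 with every probe set tested, 7 with the trend and 2 with the replicate block. With these 2 groups alone 9 were called (8 lower, and Abca1 higher). For the transgene against IL4R KO, 0 became 1 at most when single pools were left out. The median over all 33 members for WT minus IL4R KO ranged from 0.0395 to 0.22 without single pools. Of the 19 alternatives, 2 were chosen after seeing the data. A crossed replicate block (pool 1 of one genotype with pool 2 of another) gave 2 called members for WT against IL4R KO, 0 for the transgene against IL4R KO and 1 for the transgene against WT. Eif2s3y as a covariate gave 10, 1 (Pmvk) and 9, and a members' median of 0.18 for WT minus IL4R KO.

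Over all genes, calls for WT against IL4R KO moved from 557 to 300 with 2 groups and to between 110 and 1519 without single pools. Those for the transgene against WT moved from 337 to 910 with 2 groups and to between 77 and 910 without single pools. For the transgene against IL4R KO, 12 became 5 with no filter, 7 with the median of probe sets, with every probe set and with centred arrays, 19 with the trend, 0 with 2 groups, 5 with Alb as a covariate, 2 with the crossed block, and 0 to 177 without single pools. With Eif2s3y these counts were 1228, 881 and 119. Among single genes, signs turned only for values that did not pass in the reported fit. Insig2 for WT minus IL4R KO was -0.00048 with centred arrays, -0.0220 with Eif2s3y, and from -0.0212 to 0.0395 without single pools, and Insig1 was from -0.28 to 0.0319 without single pools. For the transgene minus IL4R KO, the median of probe sets gave 0.0614 for Scap, -0.21 for Abca1 and -0.0435 for Abcg1. Abca1 was -0.0728 with Eif2s3y. Without single pools, Abca1 ranged from -0.11 to 0.20 and Insig2 from -0.16 to 0.0431, and Insig2 for the transgene minus WT from -0.17 to 0.0340. The causes were not tested.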
